A study of Drosophila melanogaster with 4 samples.

Results

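The window of chromosome arm 2L that holds the glial determinants gcm and gcm2 was examined for H3K9ac in Drosophila melanogaster embryos. H3K9ac is the acetylated form of lysine 9 of histone H3, measured here by chromatin immunoprecipitation followed by sequencing (ChIP-seq). The window runs from 9560000 to 9630000 in FlyBase release 5, the build named in the file headers, and gcm precedes gcm2 in it. Its members are all enriched regions, termed clusters, that overlap the window by at least 1 bp. ChIP replicate 1 had 7 such clusters of the 1567 it had on 2L and of 8495 in all. ChIP replicate 2 had 10 of 1203 on 2L and of 6772 in all, and the list that the authors made for the replicate set, termed the replicate-set list, had 7 of 2299 on 2L and of 12322 in all.

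The series has 2 H3K9ac ChIP samples and 2 input samples without antibody, from wild-type Oregon-R embryos aged 14 to 16 h that came from population cages. The deposited files are the 3 cluster lists named above, and no input values were analysed here. Read depth is unknown. Whether the replicates are separate embryo collections is not stated, so their spread may be technical. The whole embryo was used, so the share of cells that carry the mark and the amount of mark per cell cannot be told apart.

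The genes gcm (glial cells missing, also called glide; locus tag Dmel_CG12245) and gcm2 (Dmel_CG3858) encode related transcription factors with the zinc-binding GCM domain. In the fly embryo gcm is switched on transiently in glial precursors and turns them from the neuronal to the glial fate, and gcm2 shares part of this function. Both genes also act in blood cell development, and Gcm activates the glial regulator genes repo, pointed and tramtrack. H3K9ac is in general a mark of active promoters, and it can extend over the bodies of active genes. In the RefSeq gene table, which belongs to Release 6, 3 genes lie between gcm and gcm2, namely lncRNA:CR43621, CG3841 and CG4382. Mtpalpha, which encodes an enzyme of mitochondrial fatty acid oxidation, lies before gcm, with CG31709 between them. After gcm2 come Trx2, a thioredoxin gene, and GlcAT-S, a glucuronyltransferase gene. This table was used for names and order alone. Because no coordinates were carried from Release 6 to release 5, single clusters were not assigned to gcm, to gcm2 or to their neighbours.

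H3K9ac clusters filled most of the window. In replicate 1 they covered 65.5% of its bases, against 19.9% of the rest of 2L. In replicate 2 they covered 54.9% of the window and 13.3% of the rest, and in the replicate-set list 69.1% and 27.6%. The mean of the replicates was 60.2% ± 7.47 in the window and 16.6% ± 4.67 in the rest of the arm (SD, n = 2). The window exceeded the rest by 43.6 ± 2.79 percentage points (SD, n = 2), and the lower window value lay well above the higher value of the rest. As a ratio, coverage was 3.29 times that of the rest in replicate 1, 4.12 times in replicate 2 and 2.51 times in the replicate-set list. No test was made of this difference, since there is 1 window and there are 2 replicates.

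**Figure D1:**
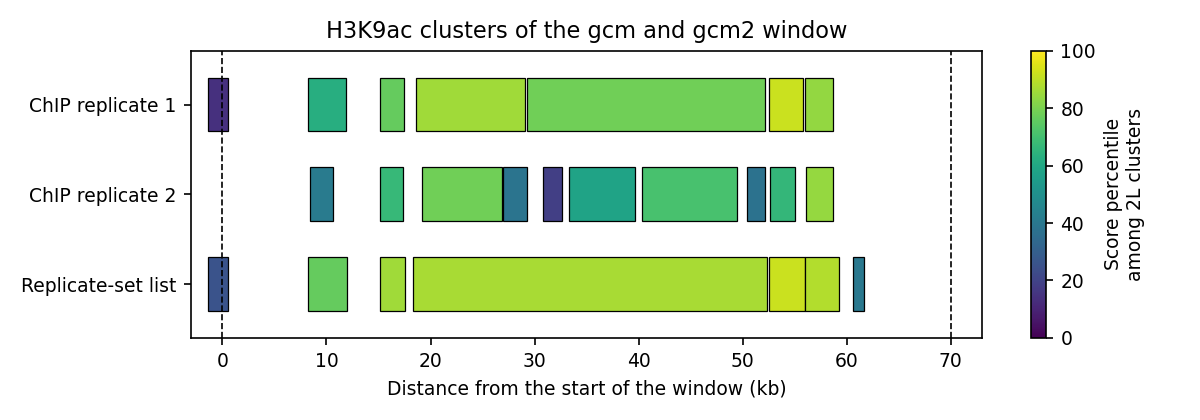
Clusters of the gcm and gcm2 window in ChIP replicate 1, ChIP replicate 2 and the replicate-set list. The horizontal axis is the distance from the start of the window in kb, each box is a cluster drawn to scale, its colour is the percentile of its score among the 2L clusters of the same list, and dashed lines mark the window's ends. The widest boxes are 22.8 kb in replicate 1, 9.07 kb in replicate 2 and 34.0 kb in the replicate-set list, and all lists are empty at the right end.

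The number and the width of clusters contributed differently in the 3 lists. The window held 10.0 clusters per 100 kb in replicate 1, against 6.80 in the rest of 2L. Replicate 2 had 14.3 per 100 kb in the window and 5.20 in the rest. In the replicate-set list the densities were 10.0 in the window and 9.99 in the rest, so its 7 clusters are the number that the arm's density gives for this length. The median width was 3294 bp in the window and 2226 bp in the rest in replicate 1. It was 2341 bp and 2119 bp in replicate 2, and 3239 bp and 2001 bp in the replicate-set list. A few clusters held most of the covered bases. Those of 5 kb or more numbered 2 in replicate 1, 3 in replicate 2 and 1 in the replicate-set list, and they made up 72.8%, 60.1% and 70.3% of the covered bases in that order. The same counts and shares were not taken over the rest of 2L, so these values describe the window alone.

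The centre of the window was a broad H3K9ac domain. In the replicate-set list it was a single cluster of 34.0 kb at 9578340 to 9612326. It was the 3rd widest of the 2299 clusters on 2L and the 6th widest of all 12322. Replicate 1 covered 98.1% of this stretch with 2 clusters, at 9578567 to 9589060 and at 9589311 to 9612158, with a gap of 250 bp between them. The second of them was 22.8 kb wide, the 3rd widest of replicate 1 on 2L and the 9th of all its clusters. Replicate 2 covered 85.4% of the stretch with 6 clusters. Its widest were 9.07 kb at 9600365 to 9609430, 7.67 kb at 9579216 to 9586882 and 6.37 kb at 9593322 to 9599686, which ranked 9th, 15th and 29th on 2L. The other 3 lay at 9586974 to 9589278, 9590841 to 9592680 and 9610380 to 9612150 and were between 1771 and 2305 bp wide.

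Both replicates were interrupted near the same place. The break of 250 bp in replicate 1 lay at 9589061 to 9589310, and the widest break of replicate 2, of 1562 bp, lay at 9589279 to 9590840. These breaks overlapped by 32 bp. The other breaks of replicate 2 inside the domain measured 91, 641, 678 and 949 bp, and replicate 1 covered all of them.

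Shorter clusters stood on both sides of the domain. To its left, a cluster of 2363 bp in the replicate-set list, at 9575142 to 9577504, was separated from it by 835 bp. The same region was called at 9575155 to 9577478 in replicate 1 and at 9575140 to 9577388 in replicate 2, so its starts differed by 15 bp and its ends by 90 bp. To its right, 2 clusters followed almost without a break, at 9612522 to 9615964 and at 9616008 to 9619246. The gaps before them were 195 bp and 43 bp. When clusters less than 500 bp apart were joined, the domain and these 2 clusters formed a run of 40.9 kb in the replicate-set list, the 2nd longest of 1874 runs on 2L. Replicate 1 then had a run of 40.1 kb at 9578567 to 9618657, the longest of its 1383 runs. In replicate 2 the longest run was 10.1 kb, the 13th of 1109, since 4 of its breaks inside the domain were wider than 500 bp. With a limit of 2000 bp the runs of both replicates were nearly the same, 43.5 kb at 9575155 to 9618657 in replicate 1 and 43.5 kb at 9575140 to 9618668 in replicate 2, the 4th and the 1st longest on 2L. The run of the replicate-set list was then 46.5 kb, the 10th longest of 1311.

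The left part of the window was sparser. A cluster at 9568248 to 9571962 in the replicate-set list was 3715 bp wide. Replicate 1 had it at 9568228 to 9571873, and replicate 2 called only its first part, at 9568455 to 9570637, so the ends differed by 1236 bp. A further cluster straddled the window's start, at 9558606 to 9560574 in replicate 1 and at 9558578 to 9560576 in the replicate-set list, and it lay in the window with 575 and 577 bp. Replicate 2 had no cluster there.

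In bins of 10 kb, coverage was highest from 20 to 50 kb after the window's start. The mean of the replicates was 94.7% ± 3.97, 91.0% ± 12.7 and 95.3% ± 6.60 in these 3 bins (SD, n = 2), and replicate 1 and the replicate-set list reached 100% in the second and the third of them. The bins before them had 19.5% ± 5.67 and 46.5% ± 13.9, and the bin after them had 74.3% ± 9.46. In the last bin, neither replicate had a covered base, and the replicate-set list covered 10.1%. Replicate 2 was below replicate 1 in each of the 6 covered bins.

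**Figure D2:**
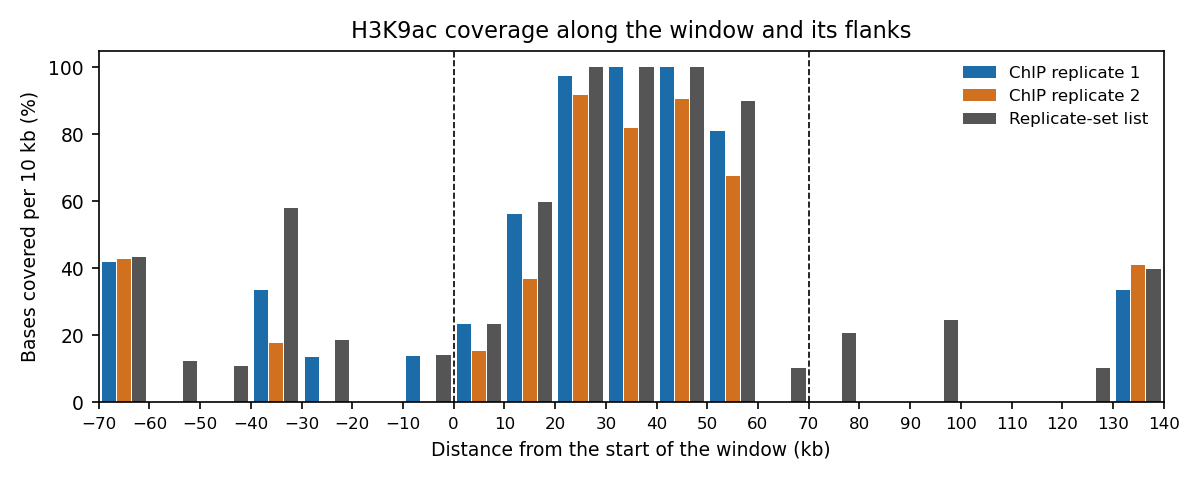
Bases covered by H3K9ac clusters in consecutive 10-kb bins of the window (between the dashed lines) and of 70 kb on each side, in percent, against the distance from the window's start in kb. Blue bars are ChIP replicate 1, orange bars ChIP replicate 2 and grey bars the replicate-set list. Coverage is above 80% in all 3 lists from 20 to 50 kb and 0 in both replicates from 60 to 130 kb.

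Within the window the replicates overlapped closely. Of the bases covered by replicate 2 in the window, 99.4% were covered by replicate 1 too, against 89.8% in the rest of 2L. In the other direction the share was 83.3% in the window and 60.0% in the rest. The Jaccard index, the bases covered by both as a share of those covered by either, was 82.9% in the window and 56.2% in the rest. These shares and the index can rise with coverage alone, which was higher in the window. They were not adjusted for it. Replicate 1 alone covered 7635 bp and replicate 2 alone 244 bp. All 38190 bp shared by the replicates were in the replicate-set list, which added 2294 bp of its own. Such containment was not particular to the window. In the rest of 2L, 2741922 of the 2742035 bp shared by the replicates were in the replicate-set list.

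Counted by cluster, all 10 window clusters of replicate 2 overlapped a cluster of replicate 1, where the share over the rest of 2L was 89.4%. Of the 7 clusters of replicate 1, 6 overlapped replicate 2, where the share over the rest was 63.4%. Of the 7 replicate-set clusters, 5 were overlapped by both replicates, where the share over the rest was 40.5%. The cluster at the window's start was overlapped by replicate 1 alone. The last cluster, of 1013 bp at 9620626 to 9621638, was overlapped by neither replicate. Wide clusters offer more bases to overlap than narrow ones, and these counts were not adjusted for width.

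Scores, deposited by the authors in units that the sources used here do not give, were read as ranks within each list. The domain was high but not extreme by score. In the replicate-set list it scored 0.953, the 298th of 2299 clusters on 2L and at percentile 87.1. In replicate 1 its 2 clusters scored 1.19 and 0.985, at percentiles 85.6 and 78.3. In replicate 2 its 3 wide clusters scored 1.10, 0.819 and 0.964 from left to right, at percentiles 78.4, 58.1 and 70.9. The 3 narrow ones between and after them scored 0.707, 0.604 and 0.705, at percentiles 38.6, 18.6 and 37.6.

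The highest score of the window in each list was in the pair of clusters at the right end of the run. In replicate 1 the cluster at 9612518 to 9615811 scored 1.42, the 125th of 1567 on 2L, and its neighbour at 9616014 to 9618657 scored 1.14, the 253rd. In replicate 2 the order was the opposite. There the cluster at 9616058 to 9618668 had the window's highest score, 1.21, the 190th of 1203, and the cluster at 9612608 to 9614984 scored 0.891, the 409th. The replicate-set scores of the pair were 1.14 and 1.01, the 188th and the 265th of 2299. The lowest scores of replicate 1 and of the replicate-set list were at the window's margins, and that of replicate 2, 0.604, was inside the domain. The cluster at the window's start ranked 1350th in replicate 1 and 1708th in the replicate-set list, and the last replicate-set cluster ranked 1375th.

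Over the whole window, the median score percentile among 2L clusters was 78.3 in replicate 1, 62.1 in replicate 2 and 85.8 in the replicate-set list. Scores above the 2L median of their list were found for 6 of 7, 6 of 10 and 5 of 7 clusters. A score in the top 10% of 2L was reached by 1 cluster in replicate 1, 0 in replicate 2 and 1 in the replicate-set list.

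**Figure D3:**
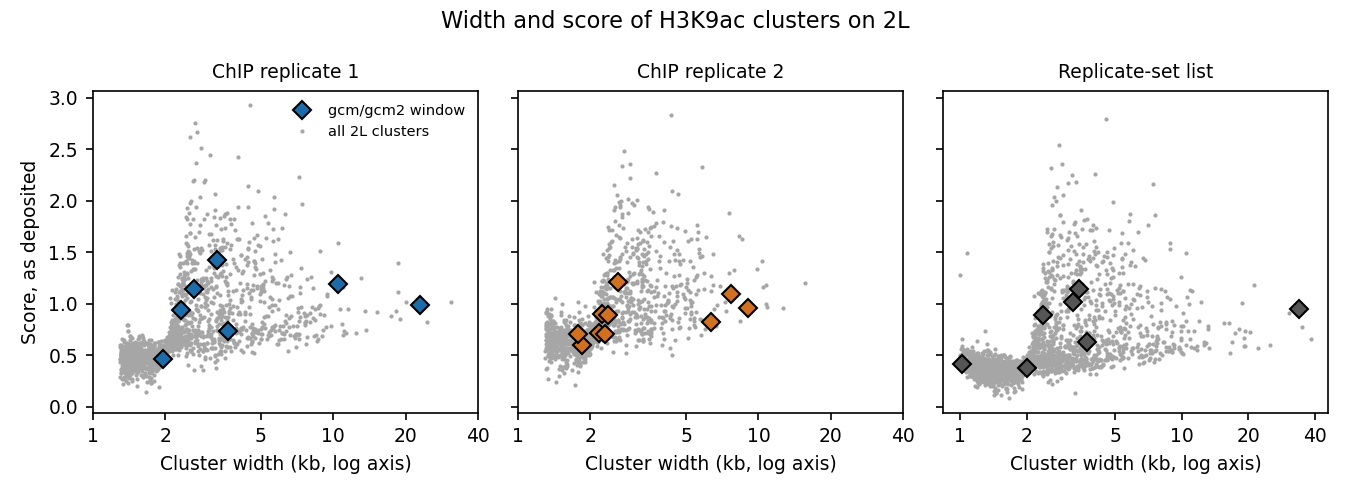
Score, as deposited, against cluster width in kb on a log axis for the clusters on 2L in each of the 3 lists. Diamonds are the clusters of the gcm and gcm2 window and grey points are all 2L clusters. The widest diamonds, at 22.8 kb, 9.07 kb and 34.0 kb, lie at the wide end of their lists at scores of 0.985, 0.964 and 0.953.

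Cluster-free sequence made up 34.5% of the window in replicate 1, 45.1% in replicate 2 and 30.9% in the replicate-set list. The longest stretch of the window that was free in all 3 lists was 8.36 kb, at 9621639 to 9630000. The next were 7.65 kb at 9560577 to 9568227 and 3.18 kb at 9571963 to 9575139. Inside the run from 9578340 to 9619246, no stretch free in all lists was longer than 191 bp. Over the whole of 2L, neighbouring clusters of replicate 1 had a median gap of 4098 bp, those of replicate 2 one of 5803 bp and those of the replicate-set list one of 2713 bp.

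The right edge of the run was called at nearly the same place in both replicates. Replicate 1 ended at 9618657 and replicate 2 at 9618668, 11 bp apart. In the replicate-set list the run went on to 9619246, and a further cluster followed after 1379 bp. Cluster lists do not show how sharply the signal falls. After its end, replicate 1 had no cluster for 78.0 kb, to 9696656. Replicate 2 had none after its own end for 77.2 kb, to 9695877. These were the 41st longest of 1567 cluster-free stretches on 2L in replicate 1 and the 59th of 1204 in replicate 2. The replicate-set list had 5 clusters inside this stretch, between 1013 and 2449 bp wide, which covered 8.48% of the free stretch of replicate 2. Their score percentiles on 2L ran between 25.2 and 54.1. On the left, replicate 2 was free for 46.0 kb before its first window cluster, from 9522475 to 9568454. Replicate 1 had 3 clusters in that stretch and the replicate-set list 4.

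The flanks of equal length were thus far less covered than the window. Coverage was 60.2% ± 7.47 in the window, 11.7% ± 4.27 in the 70 kb before it and 5.33% ± 0.774 in the 70 kb after it (mean ± SD, n = 2). In the replicate-set list the values were 69.1% in the window, 22.5% before it and 13.6% after it.

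The window was set beside 327 others of the same length, laid end to end along 2L from its own edges. In replicate 2 its 54.9% was the highest of the 328, the next being 50.2%. Such ranks depend on where the windows start. With windows in steps of 1 kb that did not touch it, 35 of 22802 were at least as covered in replicate 2. In replicate 1, 285 were, and in the replicate-set list 835. Of the windows laid end to end, 4 were higher in replicate 1, with up to 76.0%, and 14 in the replicate-set list, with up to 92.4%. The median of the other windows was 16.2% in replicate 1, 10.5% in replicate 2 and 24.8% in the replicate-set list. None of the other 327 windows laid end to end exceeded the gcm and gcm2 window in both replicates. Whether windows that start elsewhere did so was not examined. The window at 1369883 to 1439883 was higher in the mean of the replicates, with 62.3%, from 74.4% in replicate 1 and 50.2% in replicate 2. The window at 3539914 to 3609914, the most covered in replicate 1 with 76.0%, had 40.6% in replicate 2. These ranks describe the arm and carry no p-value, since neighbouring windows of a genome are not replicates.

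**Figure D4:**
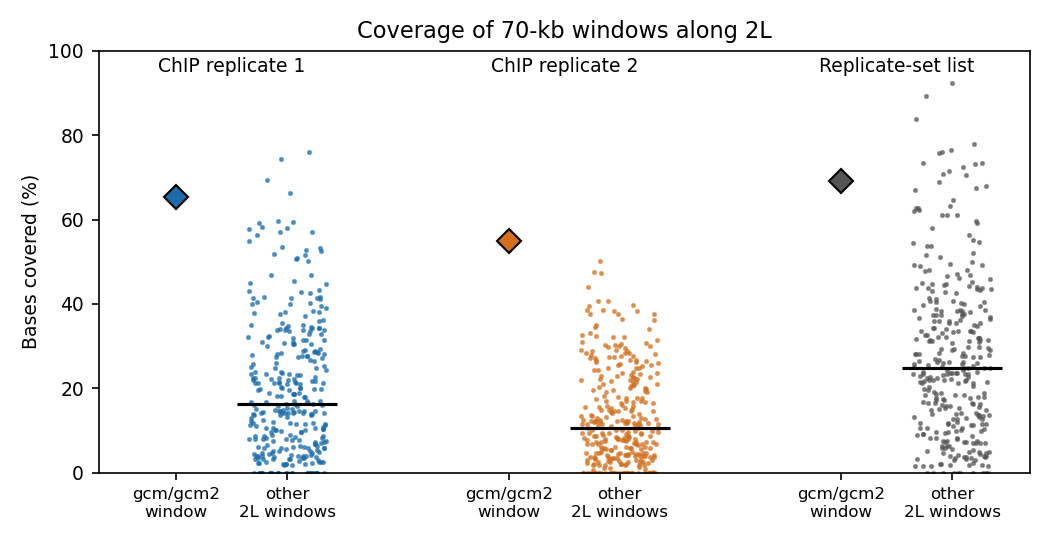
Bases covered by H3K9ac clusters, in percent, in the gcm and gcm2 window (diamond) and in the 327 other windows of 70 kb along 2L (points, with the median as a line), for ChIP replicate 1, ChIP replicate 2 and the replicate-set list. The window lies at 65.5%, 54.9% and 69.1%, above all other windows in replicate 2, below 4 in replicate 1 and below 14 in the replicate-set list.

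Sequence covered in both replicates came to 54.6% of the window, the highest value of the 328 windows laid end to end. The other 327 had a median of 9.06% and a highest value of 46.6%. This rank was not examined with windows that start elsewhere. The Jaccard index of the replicates, 82.9% in the window, was exceeded in 47 of the other windows, whose median was 57.3%. Of those 47, 46 had under 40% coverage in replicate 1. Among the 41 other windows with at least 40% coverage in replicate 1, the index had a median of 52.2% and ran between 22.4% and 89.8%. The window of gcm and gcm2 was exceeded by 1 of these. The limit of 40% was not among the planned comparisons and looks at replicate 1 alone. It can thus favour windows where replicate 2 covered much less, which lowers their index.

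The domain was also compared with the other wide clusters of 2L, those of at least 10 kb in the replicate-set list, of which there were 44. Its score of 0.953 stood 9th among the 45, whose other members had a median of 0.729. Replicate 1 covered 98.1% of the domain, the 13th highest value, with a median of 92.2% for the others. Replicate 2 covered 85.4% of it, the 9th highest, with a median of 62.0% for the others. The 6 clusters into which replicate 2 split the domain equalled the highest number among the other wide clusters, whose median was 2. Replicate 2 also had 6 in each of the 2 wider clusters of 2L, and these counts were not adjusted for width. Replicate 1 split the domain into 2, which was also the median of the others. The 2 wider clusters on 2L, of 38.3 kb at 640094 to 678426 and of 34.8 kb at 15453394 to 15488164, scored 0.656 and 0.776. Replicate 2 covered 45.1% and 67.9% of these, less than it covered of the domain in the gcm and gcm2 window.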

How the data were processed

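The authors deposited a list of significantly enriched regions for each ChIP replicate and another for the replicate set. Coordinates are of FlyBase release 5, per the file headers, and are counted from 1. The authors deposited a score with every cluster. Its scale, the aligner, the peak caller with its threshold, and how the replicate-set list was made are not given in the sources used. How finely a domain was split into clusters depends on that caller, so covered bases are given beside counts.

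The clusters were read from the files, and overlaps of at least 1 bp counted. Overlapping clusters were merged before covered bases were counted. The rest of 2L is the arm of 23.0 Mb without the window. Score percentiles are ranks within a list. Means ± SD are over 2 replicates. No p-values were computed, since there is 1 window and there are 2 replicates. Every cluster of the window was described, and the members, lists and comparisons were chosen with earlier results of these data known. A list of other glial genes could not be placed for lack of a release 5 annotation. The interval code was tested on 50 simulated pairs of lists, with 0 mismatches. Alternatives were the score filter, window edges, comparison sequence, list, overlap and joining distance. Python 3.11.15, numpy 2.4.6, pandas 2.3.3 and matplotlib 3.10.9 were used.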

Additional observations from a re-analysis of the deposited data

How the results depend on the processing

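The ratio of coverage in the window to the rest of 2L, 3.71 as the mean of the replicates, stayed above 1 under each of the 8 alternatives. It was 4.98 with the clusters under the median score left out, 2.51 in the replicate-set list, 2.92 with the window widened by 10 kb on each side, 4.96 with it narrowed by as much and 4.38 against 700 kb on each side, and it ranged from 3.29 to 4.12 without either replicate. The ratio of cluster densities was 2.11, moved to 1.00 in the replicate-set list, and ranged from 1.47 to 2.75 without either replicate. Without the replicate clusters under the median score, the share of replicate 2 bases covered by replicate 1 was 99.9% and the Jaccard index 66.9%. The longest cluster-free stretch was 8.36 kb over all lists, 11.3 kb in each replicate and in both together, and 10.8 kb without the clusters under the median score. The median score percentile was 70.2 as the mean of the replicates, 85.8 in the replicate-set list, and ranged from 62.1 to 78.3 without either replicate. Any part of the clusters of all lists leaves, by construction, a longest free stretch at least as long as all of them together. For the other shifts the cause was not tested. Windows in steps of 1 kb, an alternative chosen after seeing the data, were at least as covered in 1.25%, 0.153% and 3.66% of cases in replicate 1, replicate 2 and the replicate-set list. No paired analysis was possible because no result here comes from a test between groups, and input values were not analysed here. The limits set by read depth could not be measured, since depth is unknown.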
